A study of Mus musculus with 2 samples.

Results

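The lens epithelium is a single sheet of cells over the front of the lens, and in the newborn mouse many of its cells are still dividing. Histone-making S-phase lens epithelial cells were defined here by their histone transcripts: a lens epithelial cell was a member when it held at least 8 UMIs (unique molecular identifiers, each counted as 1 captured transcript) of Hist1h1b, Hist1h2ap and Hist1h2ae together. Of 21739 barcodes in the series, 2670 met this rule, 1383 in pool 1 and 1287 in pool 2. They were 15.9% of the 16798 cells that could qualify, which are those within 949 to 20198 UMIs and 446 to 4261 genes, with at most 15% mitochondrial UMIs, at least 2% of UMIs from the alpha crystallins Cryaa and Cryab, and under 1% from the beta crystallins Cryba2, Cryba4 and Crybb1. The 3 histone genes therefore chose the cells, and their levels are given only as a description.

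Both samples were lens epithelium of wild-type C57BL/6N pups at postnatal day 2, with lenses from 4 to 8 pups in a pool and no treatment, so every value below rests on n = 2 pools. The capsule with its adhering epithelium was peeled from the fiber mass and dissociated, and 3′ libraries were made with the 10x Genomics v3.1 kit. Within each pool, histone-making cells were set against low-histone cells, with 0 or 1 UMI of the 3 genes (8013 cells in pool 1 and 5405 in pool 2). Low-histone cells were divided further by 12 mitotic genes, among them Ccnb1 and Plk1, and by 12 genes of entry into S phase, among them Mcm2 to Mcm7 and Ccne1. Cells with at least 10 mitotic UMIs were called mitotic low-histone cells (424 and 407), and cells with at least 10 S-entry UMIs and under 5 mitotic UMIs were called S-entry low-histone cells (382 and 450). The pools held 93839132 and 86033032 UMIs in 12314 and 9425 barcodes, and 27 barcodes occurred in both pools, of which 7 were members.

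When a cell copies its DNA it must also package the new copy, and replication-dependent histone genes supply core histones (H2A, H2B, H3 and H4) and linker histone H1 for this during S phase. Their messenger RNAs are unusual in ending in a short stem-loop instead of a poly(A) tail. Stem-loop binding protein, encoded by Slbp, binds that end, and the messages are broken down when DNA synthesis stops. Replacement histones, such as H3.3 and H2A.Z, come from ordinary polyadenylated messages that are made in any phase. The kit used here primes on poly(A), so that a histone UMI counts a captured transcript, and UMIs of different histone genes cannot be read as their relative abundance.

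The 3′ ends of 6 histone genes are shown first, because the rule and the results below turn on these transcripts. Each line gives the stem-loop of the annotated transcript with its flanking bases, and capitals mark the 2 arms of the stem.
Hist1h2ap: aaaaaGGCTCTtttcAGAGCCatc
Hist1h2ae: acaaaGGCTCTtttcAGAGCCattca
Hist1h2ab: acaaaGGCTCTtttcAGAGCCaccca
Hist1h1e: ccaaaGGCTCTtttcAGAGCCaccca
Hist1h4d: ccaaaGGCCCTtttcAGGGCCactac
Hist3h2ba: ccaaaGGCTCTtttcAGAGCCacctt
Such a stem-loop was found in 38 of 67 histone symbols, in 0 of 11 replacement histone genes, and in 40 of 21901 protein-coding genes (0.183%) of GENCODE vM21. The annotated transcript of Hist1h1b (chr13:21779883-21780625, minus strand, mm10) held no match to the letters searched. It is 743 bases long, and a transcript annotated short of its 3′ end cannot show a stem-loop. A missing match, in Hist1h1b or in other histone symbols, thus does not show that the gene lacks one. In Hist1h2ap (chr13:21833026-21833507, minus strand) the stem-loop lay 3 bases before the annotated end, and in Hist3h2ba (chr11:58948920-58949533, plus strand) it lay 169 bases before the end of a transcript that also carried a poly(A) signal, AATAAA, in its last 50 bases. Hist1h2ap and Hist1h2ae share much of their sequence with other H2A genes: 92.4% and 31.8% of their 91-base windows occurred in another histone gene, against 0% for Hist1h1b. Counts of single H2A, H2B, H3 and H4 genes are thus uncertain where copies are nearly identical, and so are those of Hist1h1e and Hist1h2be, whose annotated spans overlap on one strand.

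The promoters of the 3 genes of the rule and of Pclaf, which codes for a partner of the sliding clamp at replication forks, are given because these genes were high in the same cells. Each run covers 250 bases before to 50 bases after the start (RefSeq, GRCm38.p6, which is mm10), and capitals mark 3 motifs on either strand. These were the CCAAT box, spelled CCAAT, the TATA box, spelled TATAAA, and an E2F element, counted when spelled TTTCCCGC or when spelled TTTCGCGC, and likewise for the form TTTGCCGC and for the form TTTGGCGC.
Hist1h1b (chr13:21780576-21780875, minus strand): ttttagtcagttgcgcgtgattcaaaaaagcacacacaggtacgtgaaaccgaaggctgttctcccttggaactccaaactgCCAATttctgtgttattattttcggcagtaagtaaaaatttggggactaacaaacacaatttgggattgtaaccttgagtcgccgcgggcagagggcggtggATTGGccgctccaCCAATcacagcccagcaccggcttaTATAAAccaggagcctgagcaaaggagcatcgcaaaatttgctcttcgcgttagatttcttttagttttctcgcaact
Hist1h2ap (chr13:21833426-21833725, minus strand): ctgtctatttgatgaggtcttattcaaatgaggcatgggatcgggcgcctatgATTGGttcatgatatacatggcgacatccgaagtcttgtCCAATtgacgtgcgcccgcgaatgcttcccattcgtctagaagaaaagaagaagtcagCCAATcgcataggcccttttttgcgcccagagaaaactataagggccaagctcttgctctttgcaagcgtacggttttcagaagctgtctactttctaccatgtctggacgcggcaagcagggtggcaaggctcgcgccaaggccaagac
Hist1h2ae (chr13:23571171-23571470, minus strand): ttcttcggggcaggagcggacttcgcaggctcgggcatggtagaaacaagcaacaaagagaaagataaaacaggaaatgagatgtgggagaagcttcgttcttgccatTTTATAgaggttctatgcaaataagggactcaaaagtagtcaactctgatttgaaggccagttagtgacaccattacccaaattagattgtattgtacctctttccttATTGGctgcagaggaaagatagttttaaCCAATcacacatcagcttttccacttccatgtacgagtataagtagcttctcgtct
Pclaf (chr9:65890073-65890372, plus strand): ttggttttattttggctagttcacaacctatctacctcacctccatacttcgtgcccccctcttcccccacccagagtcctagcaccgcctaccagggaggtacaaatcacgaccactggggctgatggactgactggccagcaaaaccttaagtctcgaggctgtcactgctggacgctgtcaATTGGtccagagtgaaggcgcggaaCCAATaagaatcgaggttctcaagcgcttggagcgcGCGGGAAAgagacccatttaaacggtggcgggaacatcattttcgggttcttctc
No marked match overlapped another in these runs. Another gene, Hist1h2bg, starts inside the Hist1h2ae run on the plus strand (chr13:23571396), and the TTTATA marked there spells TATAAA on that strand. A motif counted for a promoter may thus belong to a neighboring gene. CCAAT was found in 52 of 61 histone promoters, against 37.4% of 32851 promoters of the same length. TATAAA was found in 34 of 61 histone promoters, against 13.6% of all promoters, and an E2F form in 10 of 61, against 2.26%. Esco2 and Fbxo5 were not matched to a promoter.

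Members were 14.2% of eligible cells in pool 1 (1383 of 9729, exact binomial 95% interval 13.5 to 14.9%) and 18.2% in pool 2 (1287 of 7069, 17.3 to 19.1%). In cells of 5000 to 15000 UMIs the shares were 17.8% in pool 1 and 18.8% in pool 2. The intervals cover counting error only, and no test was made between 2 pools of 1 condition. Another 333 and 377 cells held 2 to 7 UMIs. Members held a median of 21 UMIs of the 3 genes in pool 1 (quartiles 14 and 29, highest 60) and 35 in pool 2 (quartiles 21 and 51, highest 111). Just inside the threshold, cells with 8 or 9 UMIs had 757 and 572 CPM (counts per 1000000 UMIs) of Pclaf in pool 1 and pool 2, and just outside it cells with 6 or 7 UMIs had 643 and 655 CPM.

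**Figure D1:**
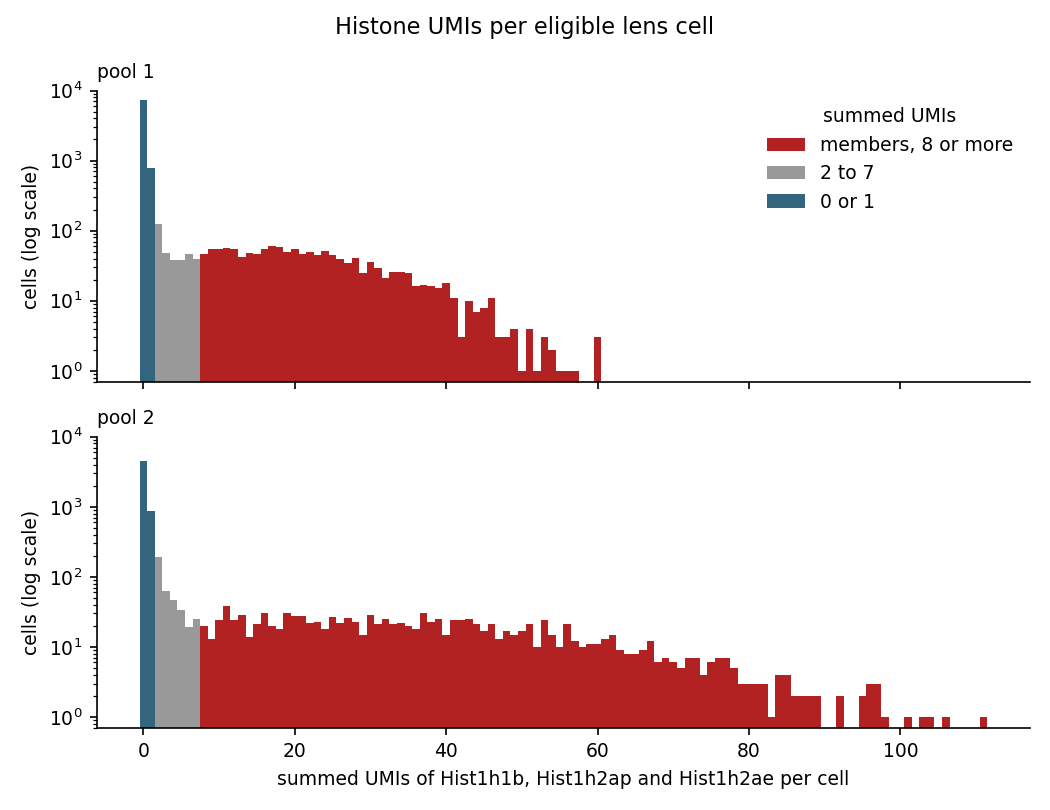
Number of eligible lens cells (vertical axis, log scale) by their summed UMIs of Hist1h1b, Hist1h2ap and Hist1h2ae (horizontal axis) in pool 1 (top) and pool 2 (bottom). Members (red) reach 60 UMIs in pool 1 and 111 in pool 2, and most other cells hold 0 or 1 UMI (blue), with few cells between (gray).

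Members were larger libraries than low-histone cells. Their median was 8611 UMIs and 2912 genes in pool 1 and 10407 UMIs and 3174 genes in pool 2, against 5761 UMIs and 2157 genes in pool 1 and 7322 UMIs and 2469 genes in pool 2 for low-histone cells. Since a rule of 8 UMIs is met more easily by a deep cell, levels below are CPM of summed counts. The median mitochondrial share was 4.99% and 4.78% in members and 5.55% and 5.33% in low-histone cells. Of members, 11.8% and 9.95% were among the 8% of cells with the highest doublet scores of their pool, against 7.08% and 7.70% of low-histone cells. The part of depth and of doublets in the differences below was not tested beyond the fits named in the closing section.

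The label was checked against its markers. All 7 markers fixed for lens epithelial cells were detected in members, with a sum of 49761 and 50406 CPM, against 63251 and 62369 CPM in low-histone cells. Pclaf was at 818 and 799 CPM in members, against 47.6 and 60.7 CPM in low-histone cells (log2 fold change 3.96 ± 0.11, SE worked out from the test statistic, adjusted p = 4.8e-12, edgeR). Rrm2, which codes for the small subunit of the enzyme that makes deoxynucleotides, was at 333 and 301 CPM in members, against 15.2 and 18.6 CPM. Esco2, an acetyltransferase that ties sister chromatids together as they are copied, was at 174 and 176 CPM in members, against 6.41 and 7.36 CPM. Each of these 3 genes was higher in both pools, as the S-phase label requires, although Pclaf, Rrm2 and Esco2 were named as markers with earlier results of these data known. Most low-histone cells, 11755 of 13418, were neither mitotic nor S-entry. This comparison alone therefore cannot tell S phase from other stages of dividing cells. At 3000 UMIs a cell, Pclaf was seen in 88.0% and 86.5% of members, against 8.00% and 9.90% of low-histone cells (99.3% and 99.0% against 12.3% and 17.3% with all UMIs), and the endothelial gene Cldn5, which lens cells should lack, in 0.580% and 0.708% against 0.811% and 0.840%. The cells were not in early S phase alone by these counts, as 57.3% and 52.3% of members also held at least 10 mitotic UMIs, against 5.29% and 7.53% of low-histone cells.

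Marker sums of other cell types were far below that of lens epithelial cells in members. Endothelial markers summed to 78.5 and 99.1 CPM in members and 98.2 and 89.5 CPM in low-histone cells, most of it Egfl7, and 0 of 8 tested endothelial genes passed in either direction. Mural markers summed to 82.8 and 62.1 CPM in members, against 75.7 and 77.1 CPM, with 1 of 6 tested genes, Pdgfrb, lower. Macrophage markers summed to 2.35 and 17.7 CPM in members and 11.7 and 9.52 CPM in low-histone cells, and melanocyte markers to under 5 CPM in each of these groups, and 0 of the 5 macrophage and 2 melanocyte genes tested passed. Fibroblast markers summed to 89.5 and 98.0 CPM in members, against 120 and 123 CPM, most of it Pdgfra at 88.1 and 95.4 CPM in members. Of 2 fibroblast markers tested, Pdgfra was lower. Erythroid markers summed to 125 and 123 CPM in members, against 110 and 213 CPM. Globin transcripts were not spread over the members, as 92.5% of the 3189 globin UMIs in members lay in 3 barcodes, against 45.0% in 3 barcodes of low-histone cells.

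Histone-making cells were set apart from low-histone cells over the whole transcriptome. Of 12970 genes tested, 3643 were higher in members (28.1%) and 3264 were lower (25.2%) at an adjusted p of 0.05 (edgeR's quasi-likelihood test with the pool as a block), so counts of members of a list are to be read against these shares. At least a 2-fold difference was seen in 909 higher genes (7.01%) and 509 lower genes (3.92%). The median over all tested genes was −0.02 on the log2 scale. Without the block, 2523 genes were higher and 1864 lower, and DESeq2 called 2306 higher and 1391 lower.

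The histone genes of the rule made up much of the histone signal, but not all of it. Hist1h1b, a linker histone gene, was at 1125 and 1842 CPM in members, against 5.43 and 8.01 CPM in low-histone cells. Hist1h2ap, an H2A gene, was at 989 and 1167 CPM in members, against 4.94 and 6.85 CPM. Hist1h2ae, also an H2A gene, was at 396 and 581 CPM, against 5.45 and 6.35 CPM. All histone symbols together took 0.467% and 0.796% of the UMIs of members, against 0.0507% and 0.0758% of those of low-histone cells. The 3 genes of the rule were 53.8% and 45.1% of the histone UMIs of members, against 3.12% and 2.80% of those of low-histone cells. This contrast in shares follows from the rule, as does part of the difference in the totals, which include the 3 genes.

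The other replication-dependent histone genes were high in the same cells. Of 64 symbols besides those of the rule, 54 passed the filter on low counts, which a gene can pass through members alone, and 53 of these were higher and 1 was lower (median log2 fold change 4.05). They included all 5 linker histone genes tested, 12 of 12 H2A, 15 of 16 H2B, 11 of 11 H3 and 10 of 10 H4 genes. Some of these H2A genes share sequence with Hist1h2ap and Hist1h2ae, so the H2A count may follow in part from the rule. In Hist1h2an and Hist1h2ab, 83.8% and 53.5% of 91-base windows occurred in other histone genes, Hist1h2ap and Hist1h2ae among them. The higher genes lay in each of the clusters: 43 of 43 tested on chromosome 13, 8 of 8 on chromosome 3, 1 of 2 on chromosome 11 and the 1 gene on chromosome 6.

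The 5 largest rises among genes of at least 50 CPM were histone genes, with Esco2 next. Hist1h2ab, whose stem-loop is shown above, was at 82.0 and 233 CPM in members, against 0.979 and 2.72 CPM in low-histone cells (log2 fold change 6.45 ± 0.13, adjusted p = 1.1e-12, edgeR). Hist1h1a, a linker histone gene, was at 110 and 187 CPM, against 1.32 and 3.08 CPM. Hist1h2bj, Hist1h2ac, Hist1h3c and Hist1h1d had log2 fold changes of 5.32, 5.11, 5.07 and 4.54. Hist1h1e, also a linker histone gene, was at 396 and 1068 CPM in members, against 25.2 and 96.0 CPM (3.73 ± 0.13), so it was also seen outside members.

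Hist3h2ba went the other way. This H2B gene, which has both a stem-loop and a poly(A) signal, was at 142 and 167 CPM in members, against 239 and 274 CPM in low-histone cells (log2 fold change −0.68 ± 0.05, adjusted p = 1.2e-07, edgeR). Its neighbor Hist3h2a was higher, at 56.6 and 64.1 CPM, against 27.1 and 29.9 CPM (1.14 ± 0.07). Hist1h2bc was at 273 and 452 CPM in members and was also well seen in low-histone cells, at 57.4 and 72.5 CPM. Over the tested histones, the 13 genes with an annotated poly(A) signal had a median log2 fold change of 2.41 and the 41 without one had 4.47, which describes these genes and was not tested. With a stem-loop the median was 3.81 (33 genes), and without one in the annotation it was 4.48 (21 genes). Several transcripts without one are annotated as short, such as those of Hist1h2bn (381 bases) and Hist1h2ak (393 bases). A transcript annotated short of its 3′ end can show neither feature, so both splits depend on the annotation.

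**Figure D2:**
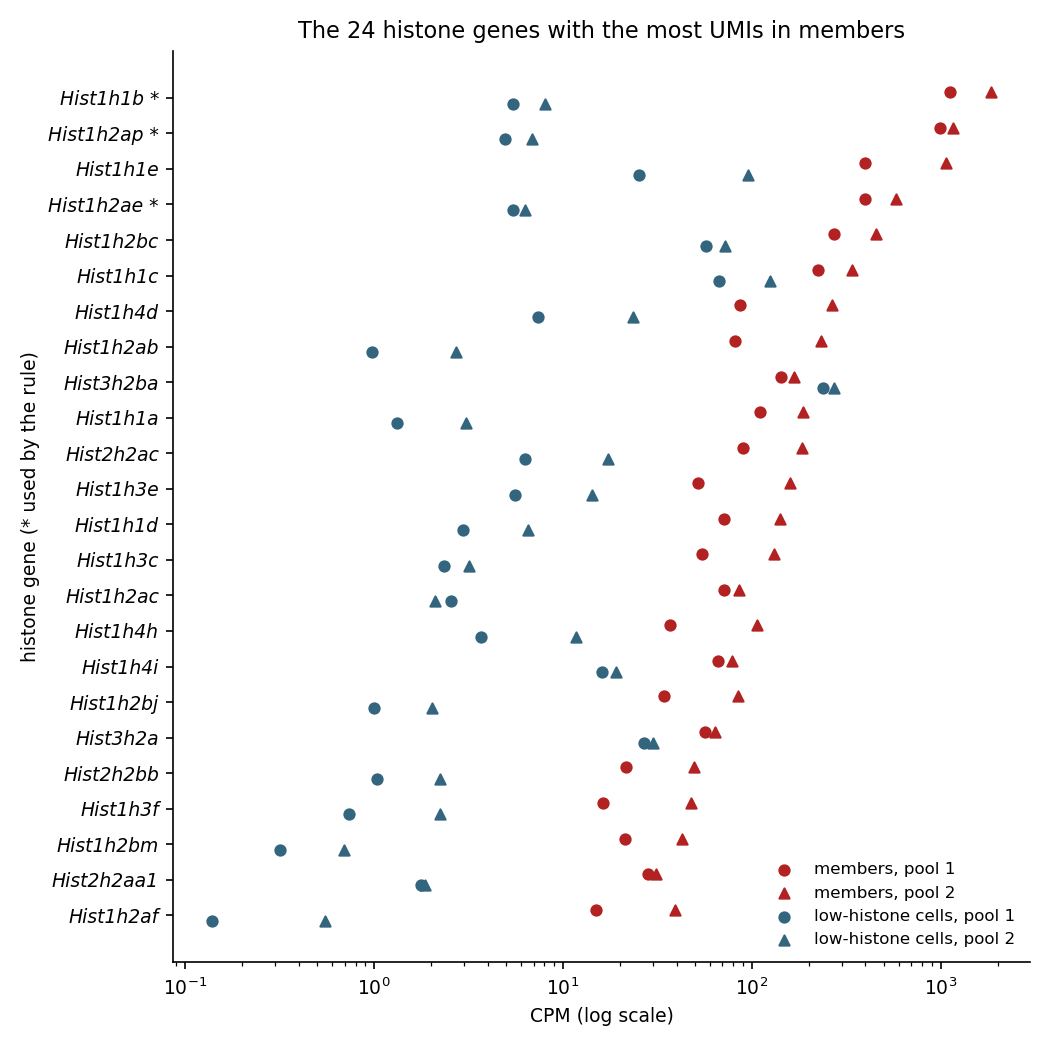
Level in CPM (horizontal axis, log scale) of the 24 histone genes with the most UMIs in members, in members (red) and low-histone cells (blue) of pool 1 (circles) and pool 2 (triangles); asterisks mark the 3 genes of the rule. All genes shown but Hist3h2ba lie to the right in members, and most red triangles lie to the right of the red circles.

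Replacement histones rose too, with a smaller median. Of 11 tested, 10 were higher and 0 lower, with a median log2 fold change of 1.01. H2afx, whose product is phosphorylated at broken DNA, was at 607 and 557 CPM in members, against 117 and 116 CPM in low-histone cells (2.37 ± 0.07). Its annotated transcript held no AATAAA in the last 50 bases. Whether its UMIs came from an ordinary polyadenylated message was not tested. H2afz, which codes for H2A.Z, was at 3393 and 3615 CPM, against 1141 and 1433 CPM. H3f3b, a gene for H3.3, differed more than H3f3a, the other gene for the same protein: their log2 fold changes were 1.04 ± 0.04 and 0.19 ± 0.02. H2afy2, at 95.2 and 83.6 CPM in members and 102 and 86.6 CPM in low-histone cells, did not pass (adjusted p = 0.74, edgeR).

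Genes that process histone messages and carry histones to DNA were higher in members, 19 of 20 tested with 0 lower and a median log2 fold change of 1.57. Slbp was at 263 and 214 CPM in members, against 79.5 and 68.9 CPM in low-histone cells (1.73 ± 0.05). Nasp, a chaperone of histones H1, H3 and H4, was at 610 and 633 CPM, against 178 and 196 CPM (1.78 ± 0.04). Chaf1b and Asf1b, which place H3 and H4 on new DNA, had the largest changes together with Dnajc9, at 3.14, 3.16 and 2.51 on the log2 scale. The exception was Lsm10, a part of the small nuclear particle that cuts histone messages, at 21.9 and 19.8 CPM in members and 23.0 and 22.1 CPM in low-histone cells (adjusted p = 0.53, edgeR).

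The replication machinery rose almost as a whole. All 31 replication fork genes tested were higher (median log2 fold change 2.28), as were 26 of 27 genes of origin licensing and firing (1.96). Clspn, which relays replication stress to the checkpoint, was at 123 and 127 CPM in members, against 9.13 and 13.5 CPM in low-histone cells (3.54 ± 0.10). Lig1, the ligase that joins Okazaki fragments, was at 278 and 283 CPM, against 29.6 and 36.1 CPM (3.15 ± 0.09). Pcna, the sliding clamp, was at 342 and 396 CPM, against 55.6 and 73.4 CPM (2.57 ± 0.06). Cdc45 and Mcm10, which start the helicase, had log2 fold changes of 3.34 and 3.32, and Orc4 of the origin complex, at 25.1 and 27.7 CPM in members and 29.0 and 27.6 CPM in low-histone cells, did not pass.

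Genes of nucleotide supply were higher in members as well. Of 23 tested, 22 were higher and 0 lower (median log2 fold change 1.25). After Rrm2 the largest were Tk1 and Tyms, which make thymidine nucleotides. Tk1 was at 235 and 231 CPM in members, against 21.1 and 27.1 CPM in low-histone cells (3.33 ± 0.10), and Tyms at 243 and 237 CPM, against 28.6 and 30.5 CPM (3.08 ± 0.08). Rrm1, the large subunit of the enzyme that Rrm2 belongs to, had a log2 fold change of 2.78. Dctd, at 21.3 and 20.9 CPM in members and 21.1 and 19.7 CPM in low-histone cells, did not pass.

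Genes that hold sister chromatids together, copy chromatin marks and guard the fork were also higher. For cohesion this held for 14 of 18 genes tested with 0 lower (median 0.81), led by Esco2, Cdca5 (3.88 ± 0.10), which codes for sororin, and Dscc1 (3.30 ± 0.08). Nipbl, of the cohesin loader, was at 127 and 104 CPM in members and 123 and 105 CPM in low-histone cells and did not pass. All 15 genes of DNA methylation and chromatin copying tested were higher (median 1.39): Uhrf1, which brings the maintenance methyltransferase to new DNA, was at 141 and 153 CPM in members, against 17.8 and 23.7 CPM, and the methyltransferase gene Dnmt1 at 164 and 163 CPM, against 31.5 and 34.9 CPM. Of 28 genes of S-phase checkpoint and repair, 27 were higher and 0 lower (median 2.51). Neil3, Brca1 and Bard1 lay between 3.37 and 3.44 on the log2 scale, and Atrip, at 11.0 and 12.6 CPM in members and 10.9 and 10.5 CPM in low-histone cells, did not pass.

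The regulators of S phase did not all move one way. Of 17 E2F and pocket protein genes, 15 were higher and E2f5 was lower. The largest changes were those of E2f7 and E2f8, which code for the atypical, repressing members of the family, with log2 fold changes of 4.78 ± 0.13 and 4.36 ± 0.15. E2f7 was at 27.4 and 27.9 CPM in members, against 0.939 and 1.15 CPM in low-histone cells. E2f1, an activator, was at 45.4 and 46.2 CPM, against 8.93 and 11.3 CPM (2.24 ± 0.09). Of 14 genes of the G1/S cyclin and kinase list, 10 were higher and the D-type cyclin genes Ccnd1 and Ccnd2, which act in G1, were lower. Ccnd2 was at 287 and 254 CPM in members, against 650 and 567 CPM (−1.12 ± 0.03, adjusted p = 5.3e-12, edgeR), whereas Ccne1 and Ccne2, the cyclins of the start of S phase, rose by 2.81 and 3.06, and Fbxo5, an inhibitor of the anaphase-promoting complex, by 4.12.

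CDK inhibitors, which stop the cycle, were divided too. Cdkn1c, the gene for p57 that is turned on as lens cells leave the cycle, was at 479 and 413 CPM in members, against 1771 and 1950 CPM in low-histone cells (−2.01 ± 0.06, adjusted p = 6.4e-12, edgeR). The other 5 inhibitor genes tested were higher in members. Cdkn2c rose by 1.88 ± 0.06 (75.9 and 69.5 CPM against 20.2 and 20.9 CPM) and Cdkn2d by 1.62 ± 0.06, and Cdkn1a and Cdkn2a stayed under 5 CPM in both groups.

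Mitotic genes were high in members, as 41 of 42 tested rose (median 2.38) and 17 of 17 genes of the CENP-A centromere (2.48). Top2a, the topoisomerase that frees linked chromatids, was at 840 and 735 CPM in members, against 83.1 and 89.7 CPM in low-histone cells (3.24 ± 0.09). Cdk1, the kinase of mitotic entry, was at 424 and 392 CPM, against 64.5 and 69.8 CPM (2.65 ± 0.08). Some genes of mitosis had smaller differences: Ccnb2 was at 56.5 and 57.2 CPM, against 32.2 and 43.3 CPM (0.65 ± 0.08), and Cenpa, the centromeric histone H3 that is reloaded after mitosis, at 108 and 107 CPM, against 84.5 and 105 CPM (0.25 ± 0.07). The call on Cenpa was lost with DESeq2 (adjusted p = 0.0725), without the pool block (adjusted p = 0.16, edgeR) and in members of at least 16 UMIs (adjusted p = 0.074, edgeR), and its value was 0.084 without pool 1 and 0.41 without pool 2. Leaving out the members with 10 or more mitotic UMIs, a count that includes Ccnb2, while low-histone cells keep theirs, lowers such genes by construction, and gave −0.92 for Ccnb2 and −1.83 for Cenpa.

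**Figure D3:**
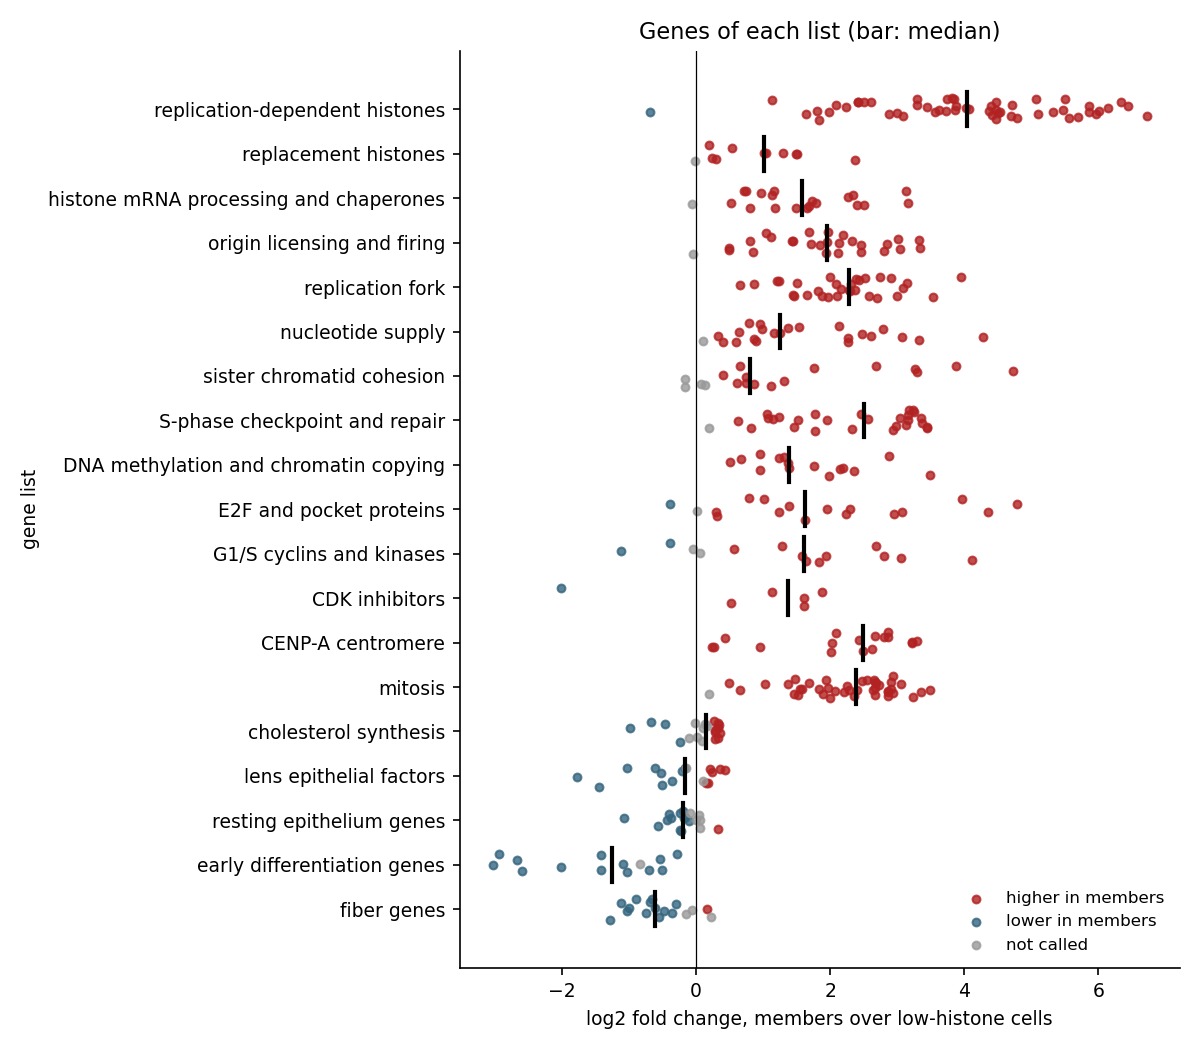
Log2 fold change of members over low-histone cells (horizontal axis) for each tested gene (point) of 19 gene lists, with the median of the list as a black bar; red points were higher, blue points lower and gray points not past an adjusted p of 0.05. Replication-dependent histones have a median of 4.05, replication fork genes of 2.28 and early differentiation genes of −1.25.

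Genes of cells that leave the cycle were low in members. Of 14 early differentiation genes tested, 13 were lower and 0 higher (median −1.25). Rbm24, an RNA-binding protein gene required for crystallin messages in lens, was at 12.7 and 7.71 CPM in members, against 86.1 and 86.2 CPM in low-histone cells (−3.04 ± 0.11, adjusted p = 4.5e-11, edgeR). Nnat, Ccdc80 and Btbd17 had log2 fold changes of −2.67, −2.60 and −2.94. Outside this list, the largest falls among genes of at least 50 CPM included Abca4 (−2.86), Mxd4 (−2.59), a Myc antagonist that marks resting cells, Kdm5b (−2.44), a histone demethylase, Adra2c (−1.91), E130218I03Rik (−1.78) and Ogn (−1.62), a matrix proteoglycan. Each of these was lower in both pools.

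Fiber genes, which the limit on beta crystallins bears on, were lower in 13 of 17 tested and higher in 1 (median −0.61). Cryba1 was at 806 and 751 CPM in members, against 1985 and 1949 CPM (−1.28 ± 0.04), and Mip, the water channel of fiber membranes, at 107 and 97.5 CPM, against 208 and 188 CPM (−0.90 ± 0.04). Of 18 genes of the resting epithelium, 12 were lower and Klf4 was higher (median −0.19). Igfbp5, an IGF-binding protein gene, was at 169 and 129 CPM in members, against 397 and 261 CPM (−1.08 ± 0.07). Within members Igfbp5 was at 205 and 212 CPM in cells of 8 to 15 histone UMIs, 165 and 163 CPM at 16 to 31 and 133 and 103 CPM at 32 to 63, and at 66.8 CPM in the 149 cells of 64 or more, all in pool 2.

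Lens transcription factors were mixed. Of 17 tested, 6 were higher and 9 lower (median −0.17). Pax6, required for the lens lineage, was at 403 and 365 CPM in members, against 367 and 324 CPM (0.21 ± 0.04), and Sox1 and Tfap2a rose by 0.44 and 0.36. Maf, which turns on crystallin genes in fibers, was at 205 and 180 CPM, against 426 and 389 CPM (−1.03 ± 0.04), and Gata3 fell by 1.45. Foxe3, an epithelial factor, was at 4.22 and 4.97 CPM in members and 4.34 and 6.27 CPM in low-histone cells and did not pass. In the Notch pathway 3 of 17 genes were higher and 5 lower, with the ligand gene Jag1 falling by 1.09 ± 0.05 and Nrarp, a target and inhibitor of the pathway, rising by 0.93 ± 0.08.

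Other lists moved little. Ribosomal protein genes, S6 kinases left out, were lower in 63 of 86 and higher in 7, but by a median of −0.10. Of 20 immediate early genes, 8 were higher and 2 lower. Of 20 cholesterol genes, 9 were higher and 4 lower (median 0.14), of 16 glutathione genes 6 and 8, of 16 genes of the lens capsule 0 and 8, and of 12 stress and apoptosis genes 1 and 3. Gsr, the glutathione reductase gene, rose by 1.03 ± 0.07 and Gss, which makes glutathione, fell by 0.94 ± 0.06.

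Members were then set against low-histone cells past the mitotic limit, a contrast within dividing cells. Of 11251 genes tested, 1966 were higher (17.5%) and 1609 lower (14.3%), with 414 (3.68%) and 220 (1.96%) at least 2-fold. Without the block these calls were 1056 and 777, and 1221 and 832 with DESeq2. The median over all tested genes was −0.01. Since mitotic UMIs chose the comparison cells, lower levels of the genes that accompany those 12 follow in part from the rule.

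Among genes of at least 50 CPM the 4 largest rises were those of histone genes. Of 46 tested histone genes besides those of the rule, 45 were higher in members and 0 lower (median 3.72). Here too a gene could pass the filter on low counts through members alone, so this count follows in part from the filter. Hist1h1a was at 110 and 187 CPM in members, against 1.40 and 1.85 CPM in mitotic low-histone cells (6.59 ± 0.24, adjusted p = 5.2e-17, edgeR). Hist2h2ac, in the chromosome 3 cluster, was at 89.5 and 185 CPM, against 1.69 and 6.33 CPM (5.17 ± 0.22). For Hist1h2ak no UMI was found in mitotic low-histone cells of either pool, so that its 442 UMIs in members were at least 42.0-fold higher against a floor of 3 counts over both pools. Hist1h2ag, at 3.57 and 7.42 CPM in members and 4.21 and 4.75 CPM in mitotic low-histone cells, was the gene that did not pass.

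Among genes of at least 50 CPM, Slfn9, a Schlafen family gene, had the largest rise outside the histone genes, at 64.5 and 73.4 CPM in members, against 2.25 and 4.75 CPM (4.36 ± 0.16). Within the same limit, and leaving out the globin gene Hbb-bs, Ccne1 was next, at 71.5 and 64.1 CPM, against 6.46 and 5.01 CPM (3.64 ± 0.17). All 31 fork genes were higher (median 1.72), as were 23 of 27 licensing genes with Dbf4 lower, and 22 of 23 nucleotide genes (0.94). Cdt1, the licensing factor destroyed in S phase, was at 52.0 and 47.9 CPM, against 3.65 and 5.80 CPM (3.46 ± 0.17). Slbp was at 263 and 214 CPM, against 55.9 and 46.4 CPM (2.30 ± 0.07), whereas Top2a, at 840 and 735 CPM in members and 949 and 774 CPM in mitotic low-histone cells, did not pass (adjusted p = 0.61, edgeR).

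Further lists in this contrast were counted. Histone processing and chaperone genes were higher in 17 of 19 and lower in 0 (median 0.99), cohesion genes in 10 and 3 of 18, chromatin copying genes in 10 and 3 of 15, checkpoint and repair genes in 24 and 0 of 28, E2F genes in 12 and 2 of 17, and G1/S genes in 11 and 3 of 14. Rad21, the kleisin subunit of cohesin, was lower in members, at 143 and 141 CPM, against 239 and 257 CPM (−0.73 ± 0.06). Replacement histones divided evenly, with 5 higher and 5 lower of 11: H3f3b rose by 0.70 ± 0.04, while Cenpa was at 108 and 107 CPM in members, against 639 and 655 CPM in mitotic low-histone cells (−2.51 ± 0.06).

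Of 30 mitosis genes that were not used to choose the cells, 22 were lower in members and Ncapg was higher (median −0.47). The largest falls among genes of at least 50 CPM were Tuba1c, a tubulin gene (10.1 and 10.8 CPM against 144 and 115 CPM, −3.54 ± 0.12), and Cdkn3, a phosphatase of CDKs (13.6 and 13.3 CPM against 93.5 and 118 CPM, −2.89 ± 0.10). They were followed by Cep89, Cenpa, Sapcd2, Reep4, Pimreg, Psrc1, Knstrn and Gas2l3, at −2.57 to −1.94 on the log2 scale. CENP-A centromere genes were higher in 8 and lower in 5 of 17.

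Cholesterol synthesis differed in this contrast as a list. All 20 genes tested were lower in members (median −0.90). Hmgcs1, an early enzyme of the pathway, was at 80.0 and 75.6 CPM in members, against 172 and 171 CPM in mitotic low-histone cells (−1.06 ± 0.07, adjusted p = 1.1e-11, edgeR). Ribosomal protein genes were higher in 72 of 86 and lower in 1, by a median of 0.14. Fiber genes were higher in 1 and lower in 8 of 16, early differentiation genes in 0 and 6 of 13, resting genes in 8 and 5 of 18, lens factors in 0 and 6 of 16, and CDK inhibitor genes in 1 and 3 of 5. Globins Hbb-bs and Hba-a1 also passed as higher, but most of their UMIs in members lay in the 3 barcodes named above, and mitotic low-histone cells held only 77 globin UMIs.

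The contrast with S-entry low-histone cells sets cells with many S-entry transcripts and few histone UMIs against all members. Members were not chosen by S-entry UMIs, and not all of them held many. Their median was 11 S-entry UMIs in pool 1 and 13 in pool 2, against 14 and 14 in S-entry cells. Of 11239 genes tested, 1494 were higher (13.3%) and 1353 lower (12.0%), with 321 (2.86%) and 130 (1.16%) at least 2-fold. Without the block 729 and 473 genes were called, and 973 and 574 with DESeq2. The 24 genes used to choose the S-entry cells are left out of these counts, and higher mitotic genes in members follow in part from the limit of 5 mitotic UMIs in S-entry cells.

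Among genes of at least 50 CPM the 3 largest rises were those of histone genes. Of 46 tested besides the rule's, 45 were higher and 0 lower (median 4.03), again after a filter that a gene could pass through members alone. Hist1h2ab was at 82.0 and 233 CPM in members, against 1.76 and 4.49 CPM in S-entry cells (5.67 ± 0.21), and Hist1h2ac at 71.7 and 85.3 CPM, against 2.46 and 1.99 CPM (5.19 ± 0.26, adjusted p = 2.5e-14, edgeR). Hist2h3b had no UMI in S-entry cells and was at least 11.2-fold higher in members against a floor of 3 counts over both pools. Hist3h2ba, at 142 and 167 CPM in members and 144 and 195 CPM in S-entry cells, was the gene that did not pass. Replacement histones were higher in 10 of 11, with H2afx at 607 and 557 CPM, against 84.3 and 85.5 CPM (2.78 ± 0.08).

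Replication genes were counted next. Fork genes were higher in 22 of 31 and lower in 0 (median 0.42), licensing genes in 9 and 3 of 20, nucleotide genes in 11 and 2 of 23, checkpoint and repair genes in 16 and 2 of 28, cohesion genes in 12 and 0 of 18, and processing and chaperone genes in 11 and 3 of 19. Pclaf was at 818 and 799 CPM, against 331 and 261 CPM (1.48 ± 0.08), and Esco2 at 174 and 176 CPM, against 24.6 and 21.2 CPM (2.97 ± 0.09). Slbp was already at 193 and 161 CPM in S-entry cells, against which members were higher by 0.45 ± 0.05. Neil3, a DNA glycosylase of replicating cells, was at 61.2 and 50.9 CPM, against 3.87 and 3.74 CPM (3.88 ± 0.19).

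Some genes of the G1/S border were lower in members than in S-entry cells, which follows in part from the rule, since those cells were chosen for high counts of S-entry genes. Ung, which removes uracil from DNA, was at 24.8 and 38.3 CPM in members, against 116 and 96.4 CPM (−1.70 ± 0.13, adjusted p = 1.4e-10, edgeR). Gins2, a part of the helicase, was at 65.8 and 77.6 CPM, against 138 and 140 CPM (−0.92 ± 0.06). Ccnd2 was at 287 and 254 CPM, against 755 and 636 CPM (−1.34 ± 0.04), and Ccnd1 fell by 0.84. E2f1 and Casp8ap2, a coactivator of histone transcription, were also lower, by −0.56 and −0.48 on the log2 scale, while E2f7 was higher by 1.85 ± 0.19.

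All 30 mitosis genes tested were higher in members than in S-entry cells (median 2.69), and 15 of 17 centromere genes. Kif23, a motor of cytokinesis, was at 87.0 and 70.2 CPM, against 2.11 and 2.49 CPM (5.07 ± 0.17), and Cenpa at 108 and 107 CPM, against 4.57 and 5.48 CPM (4.43 ± 0.15). Cdca3, Lockd, which is a noncoding transcript beside Cdkn1b, and Spc25 rose by 4.49, 4.31 and 4.12. Cholesterol genes were higher in 11 of 20 and lower in 1 (median 0.61), and CDK inhibitor genes in 4 and 0 of 5, Cdkn1c being at 479 and 413 CPM in members and 599 and 368 CPM in S-entry cells (adjusted p = 0.69, edgeR). Resting genes were higher in 0 and lower in 11 of 18, fiber genes in 1 and 10 of 16, capsule genes in 0 and 9 of 16 and ribosomal protein genes in 2 and 47 of 86. The 4 globin genes tested were lower in members, but 97.5% of the 4868 globin UMIs of S-entry cells lay in 3 barcodes.

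Members also differed among themselves by stage. Of members in pool 1 and pool 2, 15% and 19.4% held at least 10 S-entry UMIs and under 5 mitotic UMIs, 25.3% and 26.3% held at least 10 of both, and 8.97% and 8.08% held at least 10 mitotic and under 5 S-entry UMIs. Levels were compared over 6 steps: other low-histone cells, S-entry low-histone cells, members with 0 to 4, 5 to 9 and 10 or more mitotic UMIs, and mitotic low-histone cells. These steps come from the counts themselves and are a description without a test. They order cells by UMIs and not by time, and the limits were not scaled for depth. Median UMIs were 7452 and 8947.5 in the first step of members and 9028.5 and 11314 in the last.

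Hist1h1b was at 20.7 and 14.7 CPM in S-entry cells, then at 856 and 1113, 995 and 1689, and 1244 and 2159 CPM over the 3 steps of members, and at 12.9 and 18.2 CPM in mitotic low-histone cells. It thus climbed within members, while its low level on either side was set by the rule, which allows those cells at most 1 UMI. Hist1h1e followed the same course, with 243 and 650, 326 and 938, and 463 and 1266 CPM over the members. Hist1h2bc ran the other way inside members, at 437 and 725, 308 and 562, and 217 and 312 CPM, and was at 22.1 and 21.9 CPM in S-entry cells, below its 59.7 and 73.6 CPM in other low-histone cells. Hist1h2ac also fell over the members, with 106 and 138, 67.3 and 94.6, and 64.7 and 63.2 CPM.

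Genes of the G1/S border were highest early. Ung was at 116 and 96.4 CPM in S-entry cells, at 75.7 and 99.1, 38.7 and 52.2, and 6.43 and 11.3 CPM over the members, and at 0.843 and 3.96 CPM in mitotic low-histone cells. E2f1 was at 69.2 and 67.8 CPM in S-entry cells and 91.6 and 76.3, 58.3 and 61.1, and 28.5 and 29.6 CPM over the members. Pclaf was highest at the middle steps, at 972 and 898 CPM and then 947 and 912 CPM in the first steps of members. Esco2 climbed over the members, at 125 and 129, 170 and 174, and 189 and 193 CPM, and Cdk1 rose through the steps to 663 and 544 CPM in mitotic low-histone cells. Cenpa was at 17.5 and 12.0 CPM, 36.0 and 34.4 CPM, and 160 and 170 CPM over the members, and Ccnd2 fell at each of those steps in both pools.

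**Figure D4:**
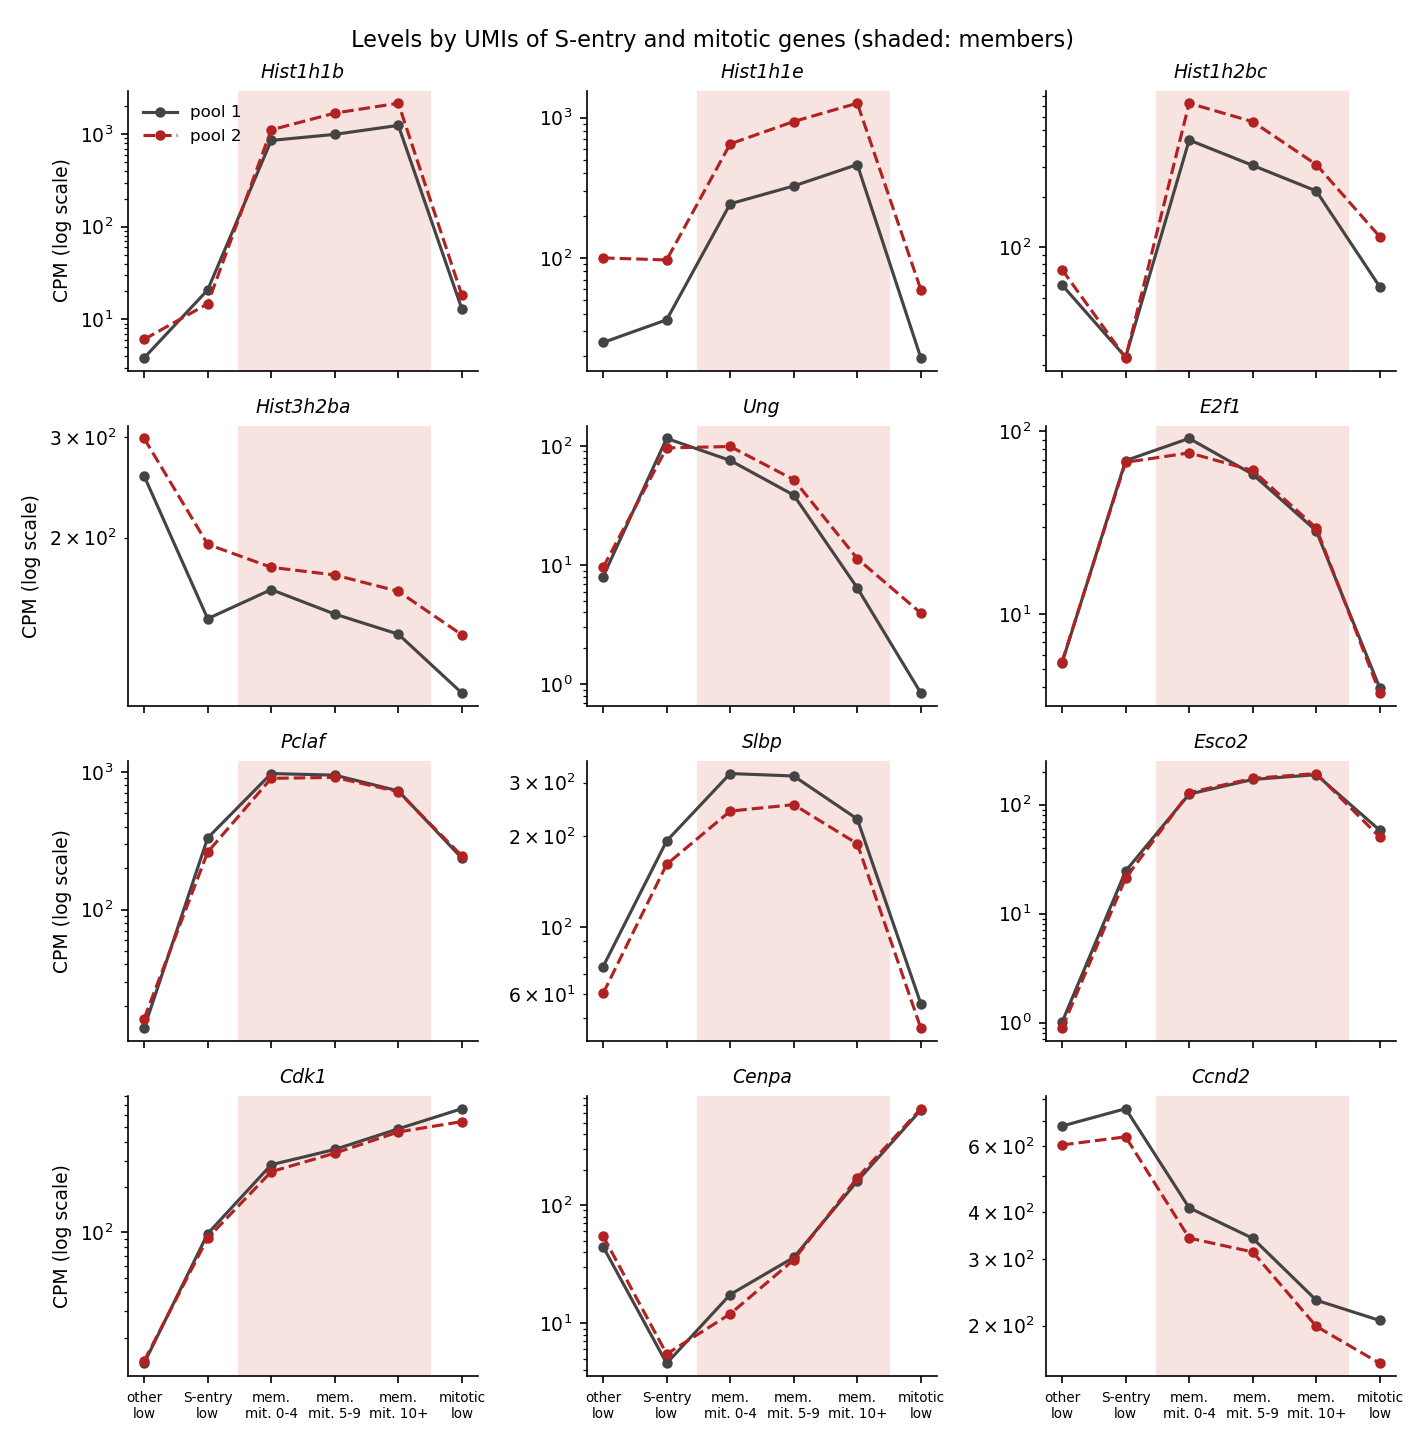
Level in CPM (vertical axes, log scale) of 12 genes over 6 steps from other low-histone cells to mitotic low-histone cells, in pool 1 (gray, solid) and pool 2 (red, dashed); shading marks members (mem.), divided by their mitotic UMIs (mit.). Hist1h1b climbs within the shaded steps, Hist1h2bc and Ung fall there, and the lines of Pclaf, Esco2 and Cenpa nearly coincide between pools.

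Some genes varied with the number of histone UMIs in a member, which is a description without a test. From members of 8 to 15 UMIs to those of 32 to 63, Pclaf was at 792 and 704, 822 and 775, and 841 and 829 CPM. Esco2 was at 129 and 131, 179 and 146, and 224 and 198 CPM over the same bins. H3f3b rose as well, at 2477 and 2341 CPM in the first bin and 3278 and 3428 CPM in the last of them. Ung fell, with 38.8 and 79.8, 22.7 and 53.1, and 11.4 and 23.5 CPM.

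Histone levels differed between the pools. Of 30 histone genes with at least 20 CPM in members, the 3 of the rule included, all 30 were higher in pool 2, by a median of 2.14 times (1.10 to 3.08). Licensing genes, in contrast, had a median ratio of 0.963 (10 of 23 higher in pool 2), fork genes of 1.02 (17 of 31), nucleotide genes of 0.976 (9 of 23) and mitosis genes of 0.882 (2 of 41). Over all 5652 genes of that level the median was 0.967. For Hist1h4d the members had 86.6 CPM in pool 1 and 266 CPM in pool 2, and low-histone cells had 7.39 and 23.5 CPM, so the same gene differed between pools outside members too. This did not hold alike for every histone gene. In low-histone cells the ratio of pool 2 to pool 1 was 3.81 for Hist1h1e and 3.18 for Hist1h4d, but 1.35 for Hist1h3c and 0.827 for Hist1h2ac. The pools are single samples of 1 condition, and what sets them apart was not tested.

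**Figure D5:**
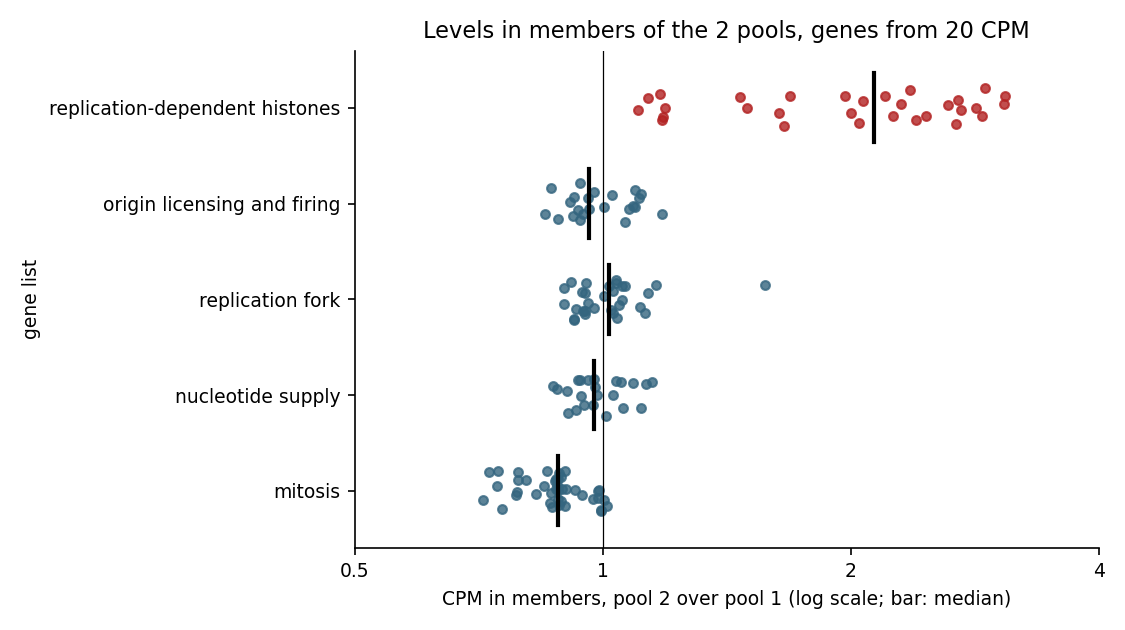
Ratio of the level in members of pool 2 to that in members of pool 1 (horizontal axis, log scale) for each gene of at least 20 CPM (point) in 5 lists, with the median as a black bar. Replication-dependent histones have a median of 2.14 and lie above 1 in 30 of 30 genes, while the medians of the other lists lie between 0.882 and 1.02.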

How the data were processed

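Both libraries were aligned by the authors with Cell Ranger (version 6.1.1 in the file headers) to mm10, and the deposited matrices hold raw UMI counts per gene and barcode, with no normalization. Totals were 93839132 and 86033032 UMIs. From these counts cells were selected by the limits given in the report, the 2nd and 97th percentiles of UMIs and genes among them. No doublets were removed from the main result. Counts were summed per pool and group, and differences were tested with edgeR 4.0.16 (R 4.3.3; quasi-likelihood test, TMM scaling, pool as a block, Benjamini-Hochberg adjustment over all tested genes besides those used to choose cells). The 3-group fit held 12991 genes with 2 residual degrees of freedom, and the 5-group fit held 11284 genes with 4. With the pool as a block, p-values measure how unevenly differences among all fitted groups repeat over 2 pools, not the shift between pools. The groups of a pool come from the same animals. Deviations of same-pool sums correlated at 0.102 to 0.356 in the 3-group fit and 0.165 to 0.494 in the 5-group fit. DESeq2 1.42.0 was an alternative. Levels are CPM of summed counts without TMM. Values after ± are the size of the log2 fold change over the square root of the F statistic of edgeR's test. They are not the spread between the 2 pools.

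Other work used Python 3.11.15 with scanpy 1.11.5, pandas 2.3.3, NumPy 2.4.6, SciPy 1.17.1 and matplotlib 3.10.9. Shares of cells were compared after thinning to 3000 UMIs, which left out 3 and 16 members and 246 and 165 low-histone cells. Stem-loops were searched in GENCODE vM21 transcripts as a 16-base pattern of 2 stem arms of 6 bases around a loop of 4, and promoters came from RefSeq. Gene positions are mm10.

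The members and the gene lists were chosen with earlier results of these data known. Genes named were markers of the label, genes the study names for its cycling clusters, the 10 largest rises and falls per contrast among called genes whose pools moved alike and whose higher group reached 50 CPM, and of each list the 5 with the largest change past the threshold and the 2 with the highest CPM that did not pass. Others, such as Slbp, Nasp, Casp8ap2, Pcna, E2f1, Hist3h2ba, Hist1h1e and Hist1h2bc, were named for their role after their values were seen. The files count captured transcripts, so a gene's share of histone UMIs is not its share of histone messages.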

Additional observations from a re-analysis of the deposited data

Results flagged for a closer look

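Histone-rich barcodes were also present among those left out by the limits. Of 1051 barcodes within the depth and mitochondrial limits but with under 2% alpha crystallin, 47 held at least 8 UMIs of the 3 histone genes, which was 35 of 566 in pool 1 (6.18%) and 12 of 485 in pool 2 (2.47%). Among these 47, 34 held at least 5 UMIs of endothelial markers, 12 of mural markers and 1 of macrophage markers. The same counts were not made over all 1051 barcodes, and a barcode could count under several lists. Of 914 barcodes above the upper limit on UMIs or genes, 292 held at least 8 such UMIs, 139 of 416 in pool 1 (33.4%) and 153 of 498 in pool 2 (30.7%). Neither set enters a comparison.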

How the results depend on the processing

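The main limits are 2 pools and a comparison of cells chosen by the same counts. Against low-histone cells, DESeq2 called 2306 genes higher and 1391 lower, 276 of them at least 2-fold lower, the fit without the replicate block called 1864 lower, and 330 genes were at least 2-fold lower once members past the mitotic limit were left out. Against mitotic low-histone cells, DESeq2 called 1221 higher and 832 lower and the fit without the block 1056 and 777. Against S-entry low-histone cells, DESeq2 called 973 higher and 574 lower (69 at least 2-fold lower) and the fit without the block 729 and 473 (84 at least 2-fold lower). The share of members in pool 1 was 10.1% with a minimum of 16 UMIs, 15.9% with 4, 17.8% in cells of 5000 to 15000 UMIs and 12.6% with no beta crystallin limit, and in pool 2 it was 15.6%, 20.0%, 18.8% and 16.1% under the same settings. Without members past the mitotic limit, the value against low-histone cells turned negative for Ccnb2 (−0.92), Cenpa (−1.83), Msmo1 (−0.22) and Insig1 (−0.21), the last pair not past the threshold, and with no beta limit for Fdps (−0.19) and, not past the threshold, Msmo1 (−0.087) and Fdft1 (−0.062). Against S-entry cells, Pf4 turned to −0.36 without high doublet scores, −0.0010 in cells of 5000 to 15000 UMIs and −0.025 without replicate 2 (2.76 without replicate 1), and Hbb-bt to 0.56 without replicate 2 (−3.17 without replicate 1). For Ccnb2 and Cenpa the setting itself lowers such genes, and the other causes were not tested. Of 574 called or uncalled values of named genes, 75 lost their call without the replicate block and 50 with DESeq2, and without the members past the mitotic limit 9 of 189 lost it and 4 turned sign. With 1 pool left there is no test; no called value changed sign without replicate 1, and 2 did without replicate 2. Genes under a few CPM are limited by depth.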
